A study of Mus musculus with 11 samples.

Results

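The common gamma chain cytokine receptors were followed across 4 groups of sorted mouse CD4 T cells. The family was taken as the 7 genes Il7r, Il2rb, Il2rg, Il4ra, Il21r, Il15ra and Il9r, found by symbol in the deposited gene table and followed through their probe sets on the array. All 7 were present, out of 20920 genes that could be tested, and they were measured by 13 of 38490 probe sets. Values are log2 differences from the WT naive average, so that 1 unit is a doubling and WT naive averages 0 by construction. The values carry no brightness, so levels could not be compared between genes.

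The common gamma chain, encoded by Il2rg, is shared by the receptors for IL-2, IL-4, IL-7, IL-9, IL-15 and IL-21, and each receptor adds a chain of its own. Ligand binding activates JAK1 and JAK3, which phosphorylate STAT factors (mainly STAT5 for IL-2, IL-7 and IL-15, STAT6 for IL-4 and STAT3 for IL-21). In CD4 T cells IL-7 maintains naive cells, IL-15 and IL-7 maintain memory cells, and IL-4 and IL-21 shape helper cell differentiation.

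All mice were female C57BL/6, and CD4 T cells were sorted from spleen as TCRβ+CD4+. WM IMP cells (innate memory phenotype, 3 arrays, CD44hi and CD45.1+) came from chimeras in which CD45.1+ WT marrow had been given to irradiated CD45.2+ MHCII-/- hosts, so that MHC class II, which presents antigen to CD4 T cells, was carried by cells derived from the marrow. MW naive cells (3 arrays, CD44lo and CD45.2+) came from the converse chimeras, with CD45.2+ MHCII-/- marrow in irradiated WT hosts. WT IMP cells (2 arrays) and WT naive cells (3 arrays) were sorted with the same CD44 gates from unmanipulated WT mice at 8 weeks of age, and chimeras were used 8 weeks after transfer. The labels disagree on the CD45 allele of the MW hosts (CD45.1 in most, CD45.2 in another), and if the hosts carried CD45.2 the gate would not have separated host from donor cells. The arrays are labelled as biological replicates. Whether each came from a single mouse or from pooled mice is not stated.

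Promoter windows are shown for Il4ra and Il21r, adjacent genes on chromosome 7 that were both lower in WT IMP cells, and for Il7r, whose level separated the naive groups. Each runs from 250 bases before to 50 bases after a start site in RefSeq (GRCm38.p6), 5′ to 3′ on the gene's strand. Capitals mark matches to the searched motifs, which were the STAT palindrome TTCNNNGAA, the same palindrome with 1 more base between its arms, the forkhead motif GTAAACA, the RUNX motif TGTGGT and the T-box motif GGTGTGA, on both strands.
Il4ra, chr7:125552021-125552320, plus strand: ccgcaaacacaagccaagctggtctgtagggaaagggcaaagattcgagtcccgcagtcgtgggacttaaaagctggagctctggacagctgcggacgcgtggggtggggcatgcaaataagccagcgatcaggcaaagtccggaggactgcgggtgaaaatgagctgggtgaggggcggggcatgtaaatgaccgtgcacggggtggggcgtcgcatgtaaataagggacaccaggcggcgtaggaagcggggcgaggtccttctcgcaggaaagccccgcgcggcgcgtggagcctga
Il21r, chr7:125603179-125603478, plus strand: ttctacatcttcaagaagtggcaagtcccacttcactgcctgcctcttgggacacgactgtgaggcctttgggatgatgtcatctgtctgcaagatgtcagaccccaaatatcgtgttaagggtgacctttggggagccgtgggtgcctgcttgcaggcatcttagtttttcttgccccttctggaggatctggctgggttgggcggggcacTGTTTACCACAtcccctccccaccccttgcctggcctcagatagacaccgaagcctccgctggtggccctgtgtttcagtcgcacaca
Il7r, chr15:9529827-9530126, minus strand: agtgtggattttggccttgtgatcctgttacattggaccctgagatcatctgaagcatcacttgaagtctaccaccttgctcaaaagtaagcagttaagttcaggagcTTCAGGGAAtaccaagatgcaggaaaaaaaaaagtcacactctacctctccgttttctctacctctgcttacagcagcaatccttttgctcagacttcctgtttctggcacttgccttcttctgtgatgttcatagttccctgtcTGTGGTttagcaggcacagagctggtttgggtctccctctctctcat
The Il7r window held 1 STAT palindrome, starting at -142 relative to the start site, and 1 RUNX match starting at base 4 after it. The Il21r window held a forkhead match at -38 and a RUNX match that overlaps it by 2 bases, both on the minus strand. The Il4ra window held none of the 5 motifs. Of 32851 windows of this length, 8.3% held TTCNNNGAA, 6.95% its wider form, 3.65% GTAAACA, 16.8% TGTGGT and 3.98% GGTGTGA. RefSeq windows were matched for 6 of the 7 genes, all but Il2rb. The windows not shown held a RUNX match for Il2rg (at -227) and for Il9r (at -83), and no match for Il15ra. A match describes the letters only.

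Cd44, which encodes the sorted surface marker CD44, was higher in both IMP groups, by log2 differences of 1.85 ± 0.16 for WM IMP against MW naive and of 2.01 ± 0.17 for WT IMP against WT naive (standard error). None of 5 measured T cell genes, Cd3e and Cd4 among them, passed the test in either comparison. Control probe sets also divided the arrays, some along the groups. Spiked hybridization controls, given as log2 differences from the WT naive mean, were higher in every chimera array (1.55 to 3.01 in WM IMP and 0.96 to 1.40 in MW naive) than in every array of unmanipulated mice (0.43 to 0.46 in WT IMP and -0.41 to 0.51 in WT naive). The Gapdh 5′ minus 3′ difference, which falls when labelled RNA is short of 5′ ends, was 0.56, -2.71 and -1.69 in WM IMP, -4.22, -3.50 and -1.38 in MW naive, -4.23 and -0.27 in WT IMP, and -0.42 to 0.41 in WT naive arrays. The same difference for actin was -0.89, -1.89 and -2.42 in WM IMP and -1.33, -0.84 and -0.82 in MW naive arrays. It was -1.22 and -0.12 in WT IMP and -0.23 to 0.35 in WT naive arrays. Actin thus ordered WM IMP arrays 2 and 3 otherwise than Gapdh did, and it was not used as a covariate. Poly-A labelling controls were high in 1 array of each group. WM IMP array 1 stood apart from the other WM IMP arrays on the second principal component, which held 17.8% of the variance.

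IMP cells carried more mRNA of Il2rb and Il15ra and less of Il4ra than naive cells, both in chimeras and in unmanipulated mice. In chimeras the comparison is of WM IMP with MW naive cells, which came from opposite chimeras. In it, and in the interaction, cell type cannot be told apart from donor genotype, host genotype and CD45 allele. Il21r was also lower in WT IMP than in WT naive cells, and Il7r was lower in WM IMP than in MW naive cells. MW naive cells differed from WT naive cells by more Il7r and less Il2rg and Il21r. At an adjusted p under 0.05 (limma, Benjamini-Hochberg over all 20920 genes), 4 of 7 genes were called in WT IMP against WT naive, 2 higher and 2 lower, where 7.67% of all genes were called (5.33% higher and 2.34% lower). This count was 1 without WT IMP array 1 and 2 without WT IMP array 2, refits that leave a lone WT IMP array, which is assumed to vary like the arrays of the other groups. In WM IMP against MW naive 4 of 7 were called, again 2 higher and 2 lower, against 13.2% of all genes (6.52% higher and 6.65% lower), and 5 were called without WM IMP array 1, without WT IMP array 1 and without WT IMP array 2, the added gene being Il21r each time. In the 7 arrays with low poly-A controls 1 receptor, Il2rb, was called in each of these comparisons. In MW naive against WT naive 3 of 7 were called, 1 higher and 2 lower, against 2.73% of all genes (0.703% higher and 2.03% lower). That count was 1 or 2 without any 1 of the 6 naive arrays and 0 with the Gapdh difference as a covariate. None was called in WM IMP against WT IMP, where limma called 1.2% of all genes (0.359% higher and 0.846% lower) and 2 of the 7 had an unadjusted p under 0.05. The interaction, which compares the IMP-naive difference of chimeras with that of unmanipulated mice, called none of the 7 and 0.0574% of all genes (0.043% higher and 0.0143% lower), with 1 of the 7 at an unadjusted p under 0.05. The median difference of the 7 genes was -0.10 in WT IMP against WT naive and 0.055 in WM IMP against MW naive, beside -0.0077 and -0.019 over all genes.

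**Figure D1:**
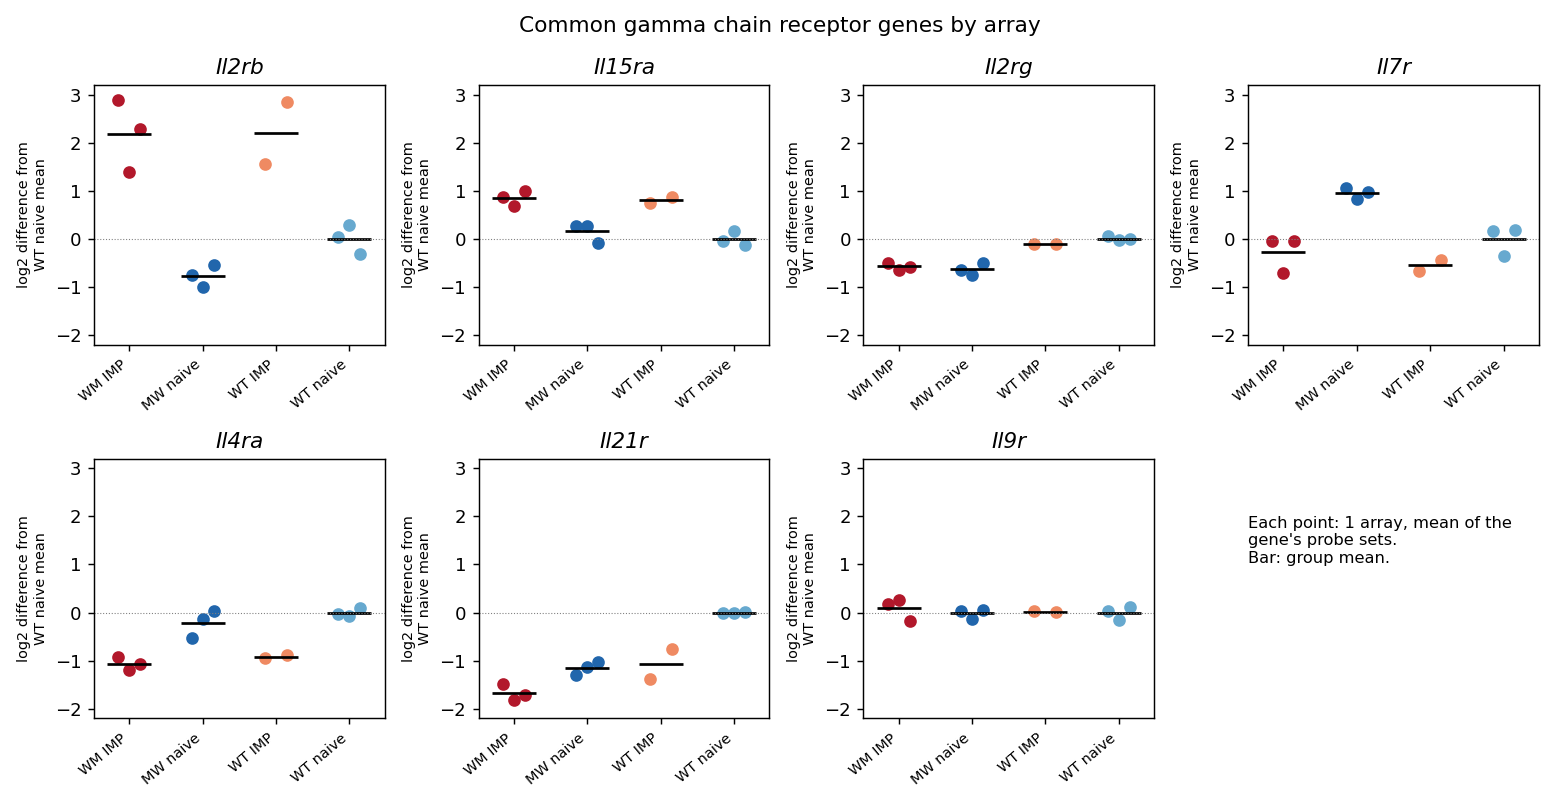
Log2 difference from the WT naive mean (vertical axis) for each receptor gene, with 1 point an array and a bar at the group mean, for WM IMP, MW naive, WT IMP and WT naive from left to right. Il2rb and Il15ra are high in both IMP groups, the MW naive arrays are the highest for Il7r, and Il9r stays near 0 in all 4 groups.

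Il2rb encodes the beta chain shared by the IL-2 and IL-15 receptors. In chimeras it lay at 2.88, 1.38 and 2.29 in WM IMP arrays, against -0.75, -1.005 and -0.54 in MW naive arrays. In unmanipulated mice it lay at 1.55 and 2.85 in WT IMP arrays, against 0.031, 0.28 and -0.31 in WT naive arrays. All 5 IMP arrays were above all 6 naive arrays. The log2 difference was 2.95 ± 0.38 for WM IMP against MW naive (7.71-fold, limma adjusted p = 0.00034) and 2.20 ± 0.43 for WT IMP against WT naive (4.59-fold, adjusted p = 0.0081). WM IMP and WT IMP differed by -0.014, with a 95% interval of -0.95 to 0.92. MW naive arrays all lay under WT naive arrays, with a difference of -0.76 ± 0.38 that did not pass the test (adjusted p = 0.36).

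The spread of Il2rb within the IMP groups came from 1 of its 2 probe sets. Probe set 1448759_at read 2.60, 2.33 and 2.65 in WM IMP arrays and -0.47, -0.79 and -0.60 in MW naive arrays, and 2.96 and 3.23 in WT IMP arrays, against -0.10, 0.39 and -0.29 in WT naive arrays. Its differences were 3.15 ± 0.19 in chimeras (adjusted p = 1.21e-06 over all probe sets) and 3.09 ± 0.22 in unmanipulated mice (adjusted p = 8.85e-06), where 10.3% and 5.36% of all probe sets were called, with an interaction of 0.054 ± 0.29 that was not called (0.0572% of all probe sets were). Probe set 1417546_at read 3.15, 0.43 and 1.94 in WM IMP and 0.13 and 2.47 in WT IMP arrays, in the order of the arrays' Gapdh 5′ minus 3′ differences. Around the group means it followed that difference with a Pearson r of 0.88 over the 11 arrays. Its order in WM IMP arrays was not the order of their actin differences. With the Gapdh difference as a covariate, an alternative chosen after seeing the data, 1417546_at differed by 1.80 ± 0.38 in chimeras (adjusted p = 0.014) and by 2.52 ± 0.44 in unmanipulated mice (adjusted p = 0.0084), whereas without the covariate its difference in unmanipulated mice was 1.30 ± 0.73 and missed the threshold (adjusted p = 0.48). Without WT IMP array 2 the gene's difference in unmanipulated mice was 1.55, with an adjusted p of 0.10.

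Il15ra encodes the alpha chain that binds IL-15 and presents it to cells carrying the beta and gamma chains. It lay at 0.87, 0.69 and 0.99 in WM IMP arrays, against 0.28, 0.27 and -0.094 in MW naive arrays. In unmanipulated mice it lay at 0.73 and 0.86 in WT IMP arrays, against -0.037, 0.16 and -0.12 in WT naive arrays. No IMP array overlapped the naive arrays. The log2 difference was 0.70 ± 0.14 for WM IMP against MW naive (1.62-fold, adjusted p = 0.0075) and 0.80 ± 0.16 for WT IMP against WT naive (1.74-fold, adjusted p = 0.010). The call in unmanipulated mice was lost without either WT IMP array (adjusted p = 0.061 without array 1 and 0.092 without array 2). The call in chimeras was lost with the hybridization controls as a covariate (0.70, adjusted p = 0.068) and in the 7 arrays with low poly-A controls (0.66, adjusted p = 0.084).

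The rise of Il15ra was carried by probe set 1448681_at, at 1.41, 1.36 and 2.06 in WM IMP and 0.45, 0.38 and -0.46 in MW naive arrays, and at 1.32 and 1.63 in WT IMP, against -0.17, 0.17 and -0.0036 in WT naive arrays. Its difference was 1.49 ± 0.26 in chimeras (adjusted p = 0.0038) and 1.47 ± 0.29 in unmanipulated mice (adjusted p = 0.012). With the Gapdh difference as a covariate it was 1.60 in chimeras (adjusted p = 0.0071) and 1.33 in unmanipulated mice, where it was no longer called (adjusted p = 0.065). The other probe set, 1422397_a_at, lay between -0.25 and 0.34 in all 11 arrays and its groups overlapped in each comparison. The files do not say which transcripts each probe set reads. Il2ra, which encodes the alpha chain of the high-affinity IL-2 receptor, lies 11977 bases from Il15ra on chromosome 2 and was also higher in both IMP groups, by 1.30 ± 0.19 in chimeras and 0.90 ± 0.21 in unmanipulated mice (adjusted p = 0.00078 and 0.023).

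Il2rg, the common gamma chain itself, was not called between IMP and naive cells but was lower in MW naive than in WT naive cells. It lay at -0.64, -0.75 and -0.50 in MW naive arrays, against 0.047, -0.032 and -0.015 in WT naive arrays. WM IMP arrays, at -0.50, -0.64 and -0.59, were at the level of MW naive arrays, and WT IMP arrays, at -0.10 and -0.11, were just under WT naive arrays. Both chimera groups therefore lay below both unmanipulated groups with no overlap, as they also divided on the hybridization controls. The difference was -0.63 ± 0.11 for MW naive against WT naive (1.55-fold lower, adjusted p = 0.017). For WM IMP against WT IMP it was -0.47 ± 0.12 and missed the threshold (adjusted p = 0.084). The call in MW naive against WT naive was lost without any 1 of the 3 WT naive arrays or of MW naive arrays 1 and 2 (adjusted p of 0.053 to 0.084). With the hybridization controls as a covariate, a fit added after seeing the data, the difference was -0.72 in MW naive against WT naive (adjusted p = 0.044) and -0.60 in WM IMP against WT IMP (adjusted p = 0.34). Those controls did not overlap between chimera and unmanipulated arrays, so that they and the chimera cannot be told apart in this fit. IMP cells differed from naive cells by 0.055 in chimeras (95% interval -0.19 to 0.30) and by -0.10 in unmanipulated mice (-0.37 to 0.17).

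The probe sets of Il2rg did not move together. On 1416296_at MW naive arrays read -1.54, -1.51 and -0.87, against 0.024, -0.036 and 0.012 in WT naive arrays, and WM IMP arrays read -1.28, -1.28 and -1.52, against -0.56 and -0.32 in WT IMP arrays. It was called in MW naive against WT naive (-1.31 ± 0.19, adjusted p = 0.0067), where 3.42% of all probe sets were called, and, close to the threshold, in WM IMP against WT IMP (-0.92 ± 0.21, adjusted p = 0.0495). On 1416295_a_at the same 11 arrays lay between -0.13 and 0.36 and no comparison was called. With the Gapdh difference as a covariate, 1416296_at differed by -1.02 ± 0.22 in MW naive against WT naive and was no longer called (adjusted p = 0.14), and by -1.01 ± 0.19 in WM IMP against WT IMP (adjusted p = 0.030). One further probe set of the deposited row, shared with the neighbouring gene Gm614, was not used.

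Il7r encodes the alpha chain of the IL-7 receptor, which marks resting naive and memory T cells. Its values were -0.049, -0.71 and -0.046 in WM IMP arrays, against 1.05, 0.82 and 0.97 in MW naive arrays. In unmanipulated mice they were -0.67 and -0.43 in WT IMP arrays, against 0.17, -0.36 and 0.19 in WT naive arrays. The 3 MW naive arrays were above all other arrays, and WM IMP arrays overlapped both groups of unmanipulated mice. Il7r fell by 1.22 on the log2 scale in WM IMP against MW naive (SE 0.21, 2.32-fold, adjusted p = 0.0023, and 0.055 in the 7 arrays with low poly-A controls). In MW naive against WT naive it was higher by 0.95 ± 0.21 (1.93-fold, adjusted p = 0.038). In WT IMP against WT naive it differed by -0.55 ± 0.23 and was not called (adjusted p = 0.22), though it was with array weights (-0.64, adjusted p = 0.024). The difference between these IMP-naive contrasts was -0.66 ± 0.31 and did not pass the test (adjusted p = 0.68).

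Both probe sets of Il7r were high in MW naive cells, but they differed on IMP cells. Probe set 1448575_at read 1.02, 0.85 and 0.84 in MW naive, against 0.13, -0.19 and 0.058 in WT naive arrays, while WM IMP (-0.28, -0.12 and 0.17) and WT IMP arrays (0.099 and -0.11) lay around 0. Probe set 1448576_at read 0.18, -1.31 and -0.26 in WM IMP and 1.08, 0.79 and 1.10 in MW naive arrays, and -1.45 and -0.76 in WT IMP, against 0.20, -0.53 and 0.33 in WT naive arrays. The first was thus at the WT naive value in WT IMP cells (difference -0.0069 ± 0.18), and the second was lower there by an uncalled -1.10 ± 0.40 (adjusted p = 0.17). In MW naive against WT naive the first was called (0.90 ± 0.16, adjusted p = 0.015), as were 3.42% of all probe sets. The second was not called there (0.99 ± 0.35, adjusted p = 0.17). The second followed the Gapdh difference within groups (r = 0.72) and the first did not rise with it (r = -0.49). The call of Il7r in MW naive against WT naive was lost when any 1 of the 6 arrays of these groups was left out, with differences of 0.77 to 1.04 and adjusted p of 0.073 to 0.13, and with the hybridization controls as a covariate (adjusted p = 0.095). With the Gapdh difference as a covariate it was lost as well (1.22, adjusted p = 0.13), and 1448575_at was no longer called (0.75, adjusted p = 0.25).

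Il4ra encodes the alpha chain of the IL-4 receptor, which also pairs with IL-13 receptor alpha 1 to bind IL-13. It lay at -0.93, -1.19 and -1.07 in WM IMP arrays, against -0.53, -0.14 and 0.034 in MW naive arrays. In unmanipulated mice it lay at -0.94 and -0.89 in WT IMP arrays, against -0.031, -0.066 and 0.097 in WT naive arrays. All IMP arrays were lower than all naive arrays. The log2 difference was -0.85 ± 0.15 in chimeras (1.81-fold lower, adjusted p = 0.0029) and -0.92 ± 0.17 in unmanipulated mice (1.89-fold lower, adjusted p = 0.0055). Without WT IMP array 1 the difference in unmanipulated mice was -0.89, with an adjusted p of 0.065. In the 7 arrays with low poly-A controls the difference in chimeras was -0.66, with an adjusted p of 0.11.

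Of its 3 probe sets, 1421034_a_at had the tightest replicates: -2.21, -2.17 and -2.13 in WM IMP, against -0.58, -0.41 and -0.33 in MW naive, and -1.51 and -1.36 in WT IMP, against -0.066, 0.11 and -0.048 in WT naive arrays. On it WM IMP differed from WT IMP by -0.73 ± 0.15 (adjusted p = 0.036 over all probe sets, of which 2.01% were called in that comparison). It was lower in IMP than in naive cells in chimeras (-1.73 ± 0.13, adjusted p = 6.9e-06) and in unmanipulated mice (-1.43 ± 0.15, adjusted p = 0.00013). The 1423996_a_at values were -1.51 to -1.26 in WM IMP and -1.95 to -0.15 in MW naive arrays, and -1.29 and -0.86 in WT IMP, against -0.34 to 0.52 in WT naive arrays. The 1447858_x_at values were -0.12 to 0.95 in WM IMP, 0.58 to 0.96 in MW naive, -0.46 and -0.022 in WT IMP, and -0.18 to 0.16 in WT naive arrays. Neither of these was called in any comparison. The gene mean used above therefore averages probe sets that disagree, and the deposited gene table gave lower values in IMP cells than that mean, -1.46 ± 0.33 in WM IMP and -1.27 ± 0.017 in WT IMP arrays (SD, n = 3 and 2).

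Il21r, the neighbour of Il4ra at a distance of 23777 bases, encodes the chain that binds IL-21. It lay at -1.48, -1.82 and -1.72 in WM IMP arrays, against -1.30, -1.12 and -1.04 in MW naive arrays. WT IMP arrays lay at -1.38 and -0.76, against -0.00094, -0.011 and 0.012 in WT naive arrays. WT naive cells thus stood above the other 3 groups, with no overlap. Il21r fell by 1.07 on the log2 scale in WT IMP against WT naive (SE 0.18, 2.10-fold, adjusted p = 0.0037) and fell by 1.15 in MW naive against WT naive (SE 0.16, 2.23-fold, adjusted p = 0.0060). Without WT IMP array 1 the first of these differences was -0.76, with an adjusted p of 0.059. In WM IMP against MW naive it differed by -0.52 ± 0.16 and missed the threshold (adjusted p = 0.060). The difference between the IMP-naive contrasts was 0.55 ± 0.25 (unadjusted p = 0.047, adjusted p = 0.66).

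A single probe set, 1450456_at, measures Il21r, and around the group means it followed the Gapdh 5′ minus 3′ difference closely (r = 0.95 over 11 arrays). The array with the lower value in WT IMP was the one with the lower Gapdh difference. With that difference as a covariate Il21r differed by -0.73 ± 0.15 in WM IMP against MW naive and was called there (adjusted p = 0.0035 over genes). In the same fit it differed by -0.79 ± 0.17 in MW naive against WT naive and lost its call (adjusted p = 0.078 over genes). In WM IMP against WT IMP it differed there by -0.72 and gained a call (adjusted p = 0.033 over genes). In WT IMP against WT naive it was -0.80 and stayed called (adjusted p = 0.026 over probe sets). That fit called 14 genes in MW naive against WT naive, none of them a receptor of the family. The naive groups do not overlap in the Gapdh difference, so that it and the chimera cannot be told apart between them.

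**Figure D2:**
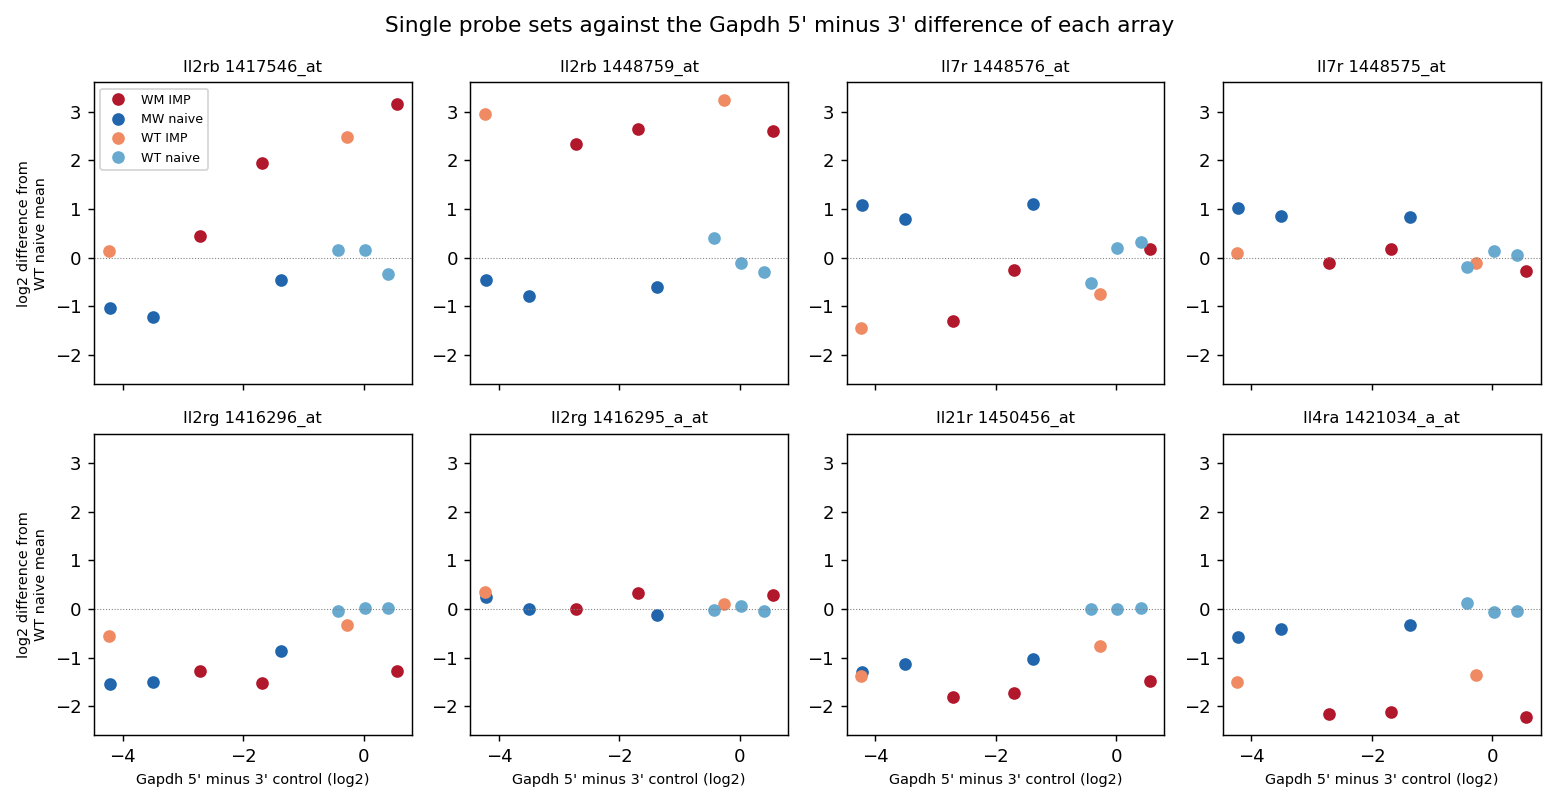
Log2 difference of 8 single probe sets from the WT naive mean (vertical axis) against each array's Gapdh 5′ minus 3′ control difference in log2 (horizontal axis), with 1 point an array, coloured by group. Il2rb 1417546_at and Il7r 1448576_at climb with the control within the IMP groups, and Il2rb 1448759_at and Il4ra 1421034_a_at separate IMP from naive arrays over the whole range of the control.

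Il9r encodes the IL-9-binding chain. Its arrays lay at 0.17, 0.27 and -0.17 in WM IMP and 0.038, -0.14 and 0.062 in MW naive, and at 0.031 and 0.0058 in WT IMP, against 0.037, -0.15 and 0.12 in WT naive. All groups overlapped, and the differences were 0.10 (95% interval -0.21 to 0.41) in chimeras and 0.018 (-0.33 to 0.36) in unmanipulated mice. Whether this probe set, 1421570_at, was above background is unknown.

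**Figure D3:**
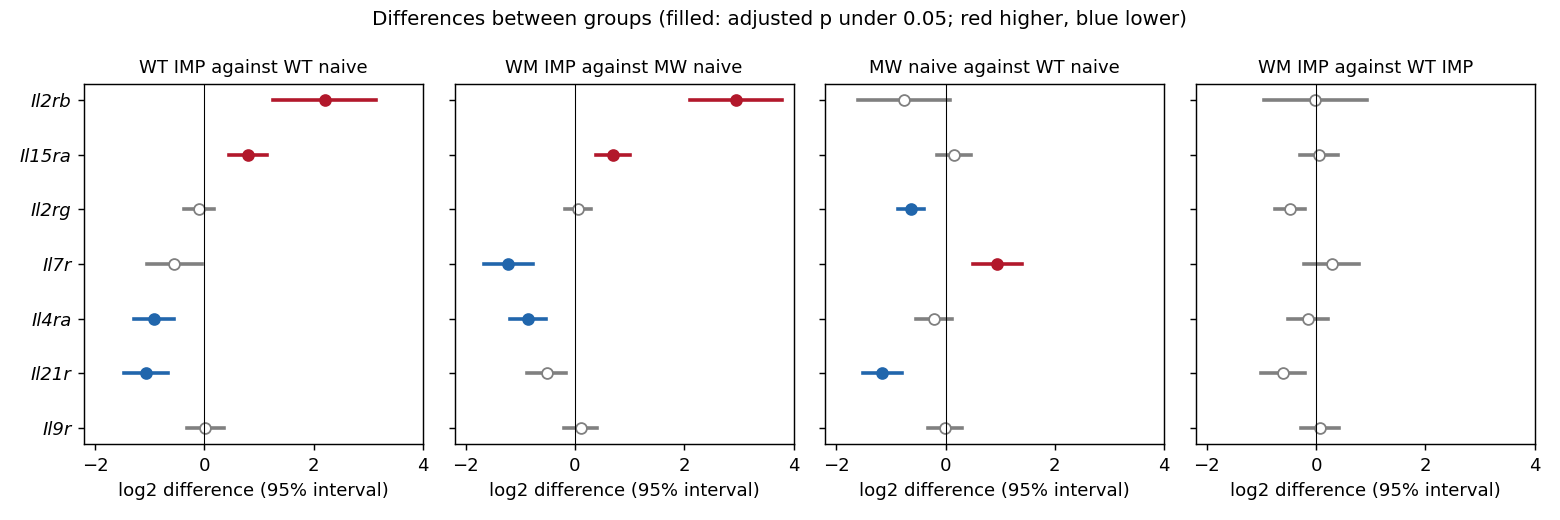
Log2 differences with 95% intervals (horizontal axis) of the 7 receptor genes (vertical axis) in 4 comparisons, one panel each, with filled points for an adjusted p under 0.05. WT IMP against WT naive and WM IMP against MW naive have 4 filled points each, MW naive against WT naive has 3, and WM IMP against WT IMP has none.

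Ordered by group mean, Il2rb ran from WT IMP (2.20) and WM IMP (2.18), whose arrays overlapped, to WT naive (0) and MW naive (-0.76). Il7r ran from MW naive (0.95) to WT naive (0), WM IMP (-0.27) and WT IMP (-0.55), and below MW naive each neighbour overlapped the next. For Il2rg the order was WT naive (0), WT IMP (-0.10), WM IMP (-0.58) and MW naive (-0.63), and the last pair overlapped. Il4ra ran from WT naive (0) and MW naive (-0.21), which overlapped, to WT IMP (-0.92) and WM IMP (-1.06), which also overlapped. Il21r ran from WT naive (0) to WT IMP (-1.07), MW naive (-1.15) and WM IMP (-1.67), with overlap between WT IMP and MW naive. Arrays of 2 groups fell apart without overlap for 39% of all genes in WT IMP against WT naive, 26.8% in WM IMP against MW naive, 26.6% in MW naive against WT naive and 33.5% in WM IMP against WT IMP, so separation by itself says little.

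Genes of chains that pair with chains of the family were also higher in IMP cells. Besides Il2ra, Crlf2, which pairs with the IL-7 receptor alpha chain to bind TSLP, was higher by 1.02 ± 0.12 in WM IMP against MW naive and by 0.82 ± 0.14 in WT IMP against WT naive (adjusted p = 0.00019 and 0.0032). Il13ra1, the partner of Il4ra, was higher in WM IMP against MW naive (0.67 ± 0.17, adjusted p = 0.021). In WT IMP against WT naive Il13ra1 differed by an uncalled 0.37 ± 0.19 (adjusted p = 0.36). Il2ra lay at -0.49, -0.94 and -1.04 in MW naive arrays, against -0.13, 0.11 and 0.023 in WT naive arrays. That difference was -0.82 ± 0.19 (adjusted p = 0.045). Of the 3 partner chains examined, 3 were higher in chimera IMP cells, 2 in WT IMP cells, and 1 was lower in MW naive cells.

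Of 8 ligand genes, 3 were higher in WM IMP than in MW naive cells and 4 in WT IMP than in WT naive cells, and none was lower. Il4, the ligand of the receptor whose chain Il4ra fell, lay at 6.63, 6.01 and 6.22 in WM IMP, against -0.085, 0.059 and 0.12 in MW naive arrays, and at 5.52 and 5.28 in WT IMP, against -0.26, 0.082 and 0.17 in WT naive arrays. The difference was 6.26 ± 0.18 in chimeras (adjusted p = 8.15e-09) and 5.40 ± 0.20 in unmanipulated mice (adjusted p = 1.4e-07). Il2 was higher by 3.21 ± 0.30 in chimeras and 4.29 ± 0.33 in unmanipulated mice (adjusted p = 2.62e-05 and 1.43e-05), and Il21 by 1.73 ± 0.40 and 1.74 ± 0.45 (adjusted p = 0.016 and 0.040). Il15 differed by 0.81 ± 0.26 in chimeras, just short of the threshold (adjusted p = 0.060), and was higher by 1.31 ± 0.29 in unmanipulated mice (adjusted p = 0.015). Il7, Il9, Il13 and Tslp were not called in any comparison. In both comparisons IMP cells thus had more Il4 and Il21 mRNA and less Il4ra mRNA. They also had less Il21r mRNA in unmanipulated mice. In chimeras Il21r differed by an uncalled -0.52 ± 0.16 (adjusted p = 0.060), and its interaction was not called (adjusted p = 0.66).

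Downstream of the receptors, neither the 3 kinase genes (Jak1, Jak3 and Tyk2) nor the 5 STAT genes held a call between IMP and naive cells. Stat6, the main factor of IL-4 signalling, lay at -1.09, -1.23 and -0.62 in MW naive arrays, against 0.042, 0.14 and -0.18 in WT naive arrays, and was lower there (-0.98 ± 0.17, adjusted p = 0.016). Of 4 feedback inhibitors, 2 were higher and 1 lower in WM IMP against MW naive, 2 were higher in WT IMP against WT naive and 2 were higher in MW naive against WT naive, while Socs1 was not called in any comparison. Cish, a STAT5 target that damps IL-2 signalling, lay at 2.18, 1.63 and 2.13 in WM IMP, 1.42, 1.39 and 1.29 in MW naive and 1.33 and 1.32 in WT IMP, against -0.12, 0.028 and 0.095 in WT naive arrays. WT naive cells were below the other 3 groups, with differences of 1.32 ± 0.17 for WT IMP against WT naive, 1.37 ± 0.15 for MW naive against WT naive and 0.61 ± 0.15 for WM IMP against MW naive (adjusted p = 0.00045, 0.0028 and 0.020). Socs2 was higher in both IMP groups, by 1.64 ± 0.15 in chimeras and 1.48 ± 0.17 in unmanipulated mice (adjusted p = 2.4e-05 and 0.00021). Socs3 was higher in MW naive than in WT naive (0.79 ± 0.18, adjusted p = 0.042) and lower in WM IMP than in MW naive (-1.23 ± 0.18, adjusted p = 0.00071), and was not called in WT IMP against WT naive.

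Among 8 survival and growth genes linked to STAT5, Bcl2, which blocks apoptosis, had the order of Il7r. It lay at -0.37, -1.12 and -0.67 in WM IMP, against 1.34, 1.75 and 0.97 in MW naive arrays, and at -1.83 and -1.65 in WT IMP, against -0.33, 0.20 and 0.14 in WT naive arrays. MW naive arrays were highest, and all IMP arrays were below all naive arrays. Bcl2 fell by 2.07 on the log2 scale in WM IMP against MW naive (adjusted p = 0.00013) and fell by 1.74 in WT IMP against WT naive (adjusted p = 0.0016), and was higher by 1.35 ± 0.24 in MW naive against WT naive (adjusted p = 0.017). Myc, Pim2 and Osm were lower in WM IMP against MW naive, by -1.32 ± 0.23, -0.81 ± 0.23 and -0.60 ± 0.14 (adjusted p = 0.0027, 0.040 and 0.013), and in WT IMP against WT naive none of these 3 was called. None of the 8 was called higher in IMP cells.

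Transcription factors known to act on Il2rb and Il7r were examined as a last list. Tbx21 (T-bet), an activator of Il2rb, lay at 4.97, 5.11 and 5.04 in WM IMP, against -1.15, -1.34 and -0.82 in MW naive arrays, and at 6.22 and 5.85 in WT IMP, against 0.78, -0.16 and -0.61 in WT naive arrays. Its difference was 6.14 ± 0.29 in chimeras (adjusted p = 1.82e-07) and 6.03 ± 0.32 in unmanipulated mice (adjusted p = 1.86e-06). Eomes, the related T-box factor, was higher by 1.58 ± 0.42 in chimeras (adjusted p = 0.029) and differed by 0.27 ± 0.47 in unmanipulated mice (adjusted p = 0.95), and the difference between these contrasts was not called. Foxo1, an activator of Il7r in naive T cells, differed by -0.72 ± 0.14 in WM IMP against MW naive and by -0.95 ± 0.15 in WT IMP against WT naive and was called in both (adjusted p = 0.0051 and 0.0026). Gfi1, a repressor of Il7r, was higher by 1.79 ± 0.23 and 1.85 ± 0.26 (adjusted p = 0.00035 and 0.00094), and Klf2, a factor of resting T cells, was lower in chimeras (-1.56 ± 0.21, adjusted p = 0.00042). In MW naive against WT naive no factor on this list was called. Eomes (-1.73), Tbx21 (-1.10), Foxo1 (-0.50) and Ets1 (-0.80) were lower and missed the threshold, with adjusted p of 0.055 to 0.096. The list median was -0.45, against 0.051 over all genes, and only Klf2 was higher (0.16, also uncalled). Whether these factors bear on the high Il7r of MW naive cells was not tested. Over all 39 pathway genes examined, 11 were higher and 7 lower in WM IMP against MW naive, 10 higher and 2 lower in WT IMP against WT naive, 3 higher and 2 lower in MW naive against WT naive, and none was called in WM IMP against WT IMP or in the interaction. Beside these counts and those of the single lists, 13.2%, 7.67% and 2.73% of all genes were called in the first 3 of these comparisons. The lists were chosen with earlier results of these data known, so their counts do not measure enrichment.

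**Figure D4:**
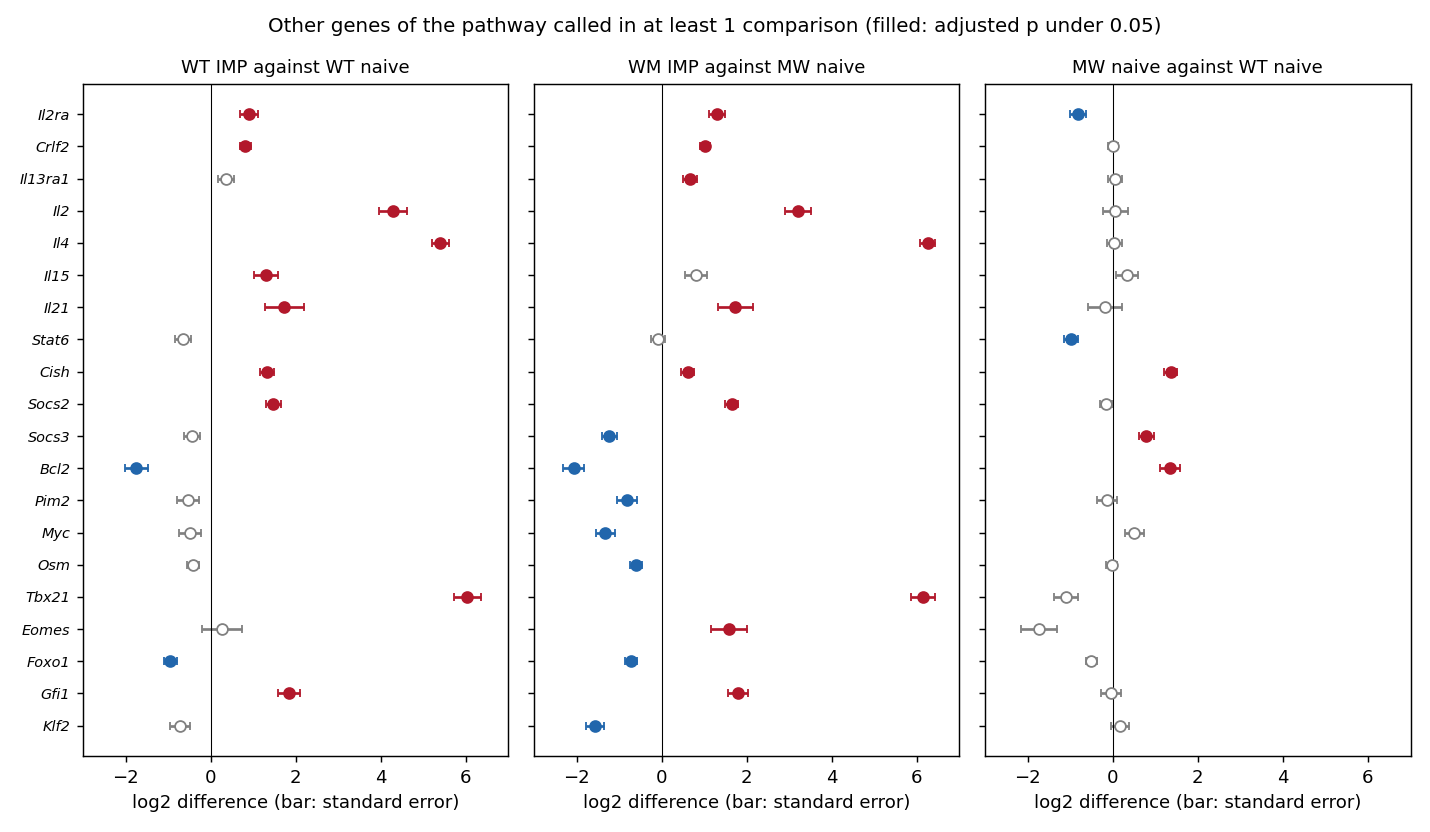
Log2 difference with its standard error (horizontal axis) for the partner chains, ligands, STAT factors, inhibitors, survival genes and transcription factors called in at least 1 of 3 comparisons (vertical axis), with filled points for an adjusted p under 0.05. Il4 and Tbx21 lie near 6 in both comparisons of IMP with naive cells, and Bcl2 changes side between WM IMP against MW naive and MW naive against WT naive.

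Il2rb is also expressed by NK cells and regulatory T cells, Il15ra by dendritic and myeloid cells, and Il2ra by regulatory T cells, and some markers of these cells moved with the receptors. All 3 regulatory T cell genes, Foxp3, Ikzf2 and Ctla4, were higher in both IMP groups. Their mean ranged over arrays from 2.60 to 2.72 in WM IMP, -0.81 to -0.40 in MW naive, 2.24 to 2.35 in WT IMP and -0.050 to 0.041 in WT naive. Of 6 NK cell genes, 3 were higher in WM IMP against MW naive and 3 in WT IMP against WT naive. The mean of the NK cell list was 0.47 to 1.01 in WM IMP, -0.59 to -0.48 in MW naive, 1.501 to 1.66 in WT IMP and -0.23 to 0.27 in WT naive arrays. Of 8 dendritic cell genes, 5 were higher in chimeras and 7 in unmanipulated mice. Their mean was 1.65 to 2.78 in WM IMP, -0.28 to -0.0028 in MW naive, 2.82 to 3.01 in WT IMP and -0.16 to 0.24 in WT naive arrays. Monocyte, macrophage and granulocyte genes were higher in 5 of 9 cases in each comparison, with means of 0.93 to 1.76 in WM IMP, -0.85 to -0.50 in MW naive, 1.503 to 1.93 in WT IMP and -0.19 to 0.35 in WT naive arrays. B cell genes were higher in 4 of 8 cases in chimeras and 1 of 8 in unmanipulated mice, with means of 0.98 to 2.67 in WM IMP, -0.74 to 0.0074 in MW naive, -0.083 to 0.67 in WT IMP and -0.53 to 0.48 in WT naive arrays. The plasma cell list had 1 of 3 genes higher in chimeras and 2 of 3 in unmanipulated mice, and the CD8 T cell list 1 of 2 and 0 of 2. Of all genes, 6.52% were higher in chimeras and 5.33% in unmanipulated mice. The sort purity is given as 92% to 99%, and the part of these cells in the receptor values was not tested. Fewer cells of a type and less RNA per cell cannot be told apart in sorted bulk RNA.

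The genes whose values over the 11 arrays ran most like each receptor were described by Pearson's r, which here mostly reflects the 4 groups. Adam19, Slamf8 and Cfap126 ran most like Il2rb (r = 0.98, 0.97 and 0.97), Gbp3, AW112010 and Pmaip1 like Il15ra (0.99, 0.97 and 0.97), and Ovgp1, Pard6g and Arv1 like Il7r (0.96, 0.95 and 0.94). For Il4ra they were Gramd4 and Atp11b (0.97 each), for Il21r Zfp36, Elovl5 and Ptcd2 (0.99, 0.98 and 0.97), and for Il2rg Inpp5b, Pdia6 and Zwint (0.96, 0.95 and 0.95). Within the family Il4ra ran opposite to Il15ra (r = -0.94) and Il2rb (r = -0.80), and Il21r ran with both Il4ra and Il2rg (0.79 each).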

How the data were processed

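The authors deposited log2 values per probe set, obtained by RMA (robust multi-array averaging) per the submitters' processing notes and expressed relative to WT naive. Base 2 is the usual one of RMA and is not given in the labels. The deposited gene table, also in log2 and quantile normalized per its name, paired probe sets with genes and served as an alternative. How it combined probe sets is not given in the sources used here. Probe sets of exactly 1 gene were kept, 43 genes with several symbols were left out, and probe sets were averaged to a gene value. No filter on dim probe sets was possible without brightness. The number of arrays limits the precision.

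All 11 arrays entered a linear model of the 4 groups (lmFit and eBayes of limma 3.58.1, R 4.3.3), checked on simulated data, with Benjamini-Hochberg adjustment over all genes, or over all probe sets, of a comparison. Values after ± are standard errors unless marked SD. Tables and plots were made with matplotlib 3.10.9, pandas 2.3.3, numpy 2.4.6 and Python 3.11.15.

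The 7 receptors, the lists of pathway and marker genes, the rule for named genes (all receptors with every probe set, called pathway genes, and the 3 genes of highest correlation for each receptor) and the alternatives were chosen with earlier results of these data known. A sort marker and 1 gene of the correlation rule are not reported here. Il2rg was identified by its Entrez identifier, since its row also names Gm614. Promoter windows came from RefSeq (GRCm38.p6).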

Additional observations from a re-analysis of the deposited data

How the results depend on the processing

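The 11 called receptor differences kept direction and call in 219 of 253 alternatives and lost the call in 34, with no change of direction. These alternatives include a stricter threshold and fits without an array of a group not compared, which leave the difference itself unchanged. The losses were uneven. In MW naive against WT naive Il7r lost the call in 11 of 23 alternatives and Il2rg in 8 of 23. The 24 uncalled differences gained a call in 8 of 545 alternatives, and none changed direction with a call. Alternatives that gave other counts of called genes are listed here by comparison, and their cause was not tested beyond the fewer arrays or the stricter threshold that some of them have by construction. For WT IMP against WT naive (1604 genes), 3135 were called with array weights, 841 at an adjusted p under 0.01, 496 in the 7 arrays whose poly-A controls were low and 1050 with the Gapdh covariate. For WM IMP against MW naive (2755 genes), the counts were 1455 at an adjusted p under 0.01, 1213 in the 7 arrays, 1616 with hybridization controls as a covariate (69.7% of them higher, against 49.5%) and 1584 in a fit of these groups alone. For MW naive against WT naive (572 genes, 25.7% of them higher), they were 2145 with array weights, 107 at an adjusted p under 0.01, 15 in the 7 arrays, 14 with the Gapdh covariate (42.9% higher), 963 in the groups alone and 1198 by single probe sets. The share higher was 45.5% with hybridization controls as a covariate and 41.8% in the other deposited table. For WM IMP against WT IMP (252 genes), they were 459 with array weights, 29 at an adjusted p under 0.01, 9 in the 7 arrays, 6 with hybridization controls, 8 in the groups alone, 733 by single probe sets and 398 in the other deposited table. For the interaction (12 genes), they were 58 with array weights, 6 at an adjusted p under 0.01, 1 in the 7 arrays, 4 with the Gapdh covariate, 19 by single probe sets and 19 in the other deposited table. The covariates were added after seeing the data. Among the pairwise comparisons, hybridization controls overlapped only between WT IMP and WT naive arrays. In the others they cannot be told apart from the groups compared. The 7 arrays hold 1 WT IMP array, as do refits without either WT IMP array, and its spread is then taken from the other groups.

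Called receptors numbered 1, 1 and 0 in the 7 arrays for WT IMP against WT naive, WM IMP against MW naive and MW naive against WT naive. For MW naive against WT naive there was 1 at an adjusted p under 0.01 and 0 with the Gapdh covariate. For WM IMP against WT IMP there was 1 with that covariate (Il21r) and 2 by single probe sets (Il2rg and Il4ra). Leaving out 1 array at a time gave 1 to 4, 4 to 5, 1 to 3, 0 to 0 and 0 to 0 called receptors over the 5 comparisons in the order above, and 722 to 2116, 1878 to 2972, 120 to 1045, 14 to 954 and 4 to 64 called genes.

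Replicate numbers did not pair the samples: same-numbered arrays of different groups correlated at -0.28 to 0.19 in their deviations from group means. A block for the replicate number called 302 genes in MW naive against WT naive, 101 in WM IMP against WT IMP and 7 in the interaction, with no other count moved by over 1.5 times.

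Directions that turned belonged to uncalled differences. With the Gapdh covariate MW naive against WT naive was 0.10 for Il2rb (0.73 for its probe set 1417546_at), 0.013 for Il4ra, 0.016 for Il9r, -0.064 for Il2rg 1416295_a_at and -0.066 for Il15ra 1448681_at. WM IMP against WT IMP was 0.0052 for Il2rg 1416295_a_at, and the interaction was -0.39 for Il2rb (-0.72 for 1417546_at and -0.068 for 1448759_at), -0.23 for Il4ra (-0.0087 for 1423996_a_at) and 0.069 for Il2rg 1416295_a_at. With hybridization controls Il9r was -0.0076 in WT IMP against WT naive and -0.033 in WM IMP against WT IMP, Il2rg was -0.025 in WM IMP against MW naive, and the Il4ra interaction was -0.0046. Il9r in WT IMP against WT naive was -0.016 with array weights, -0.0020 with a poly-A block and, with 1 array left out, -0.059 (without WT naive array 2) to 0.077. In MW naive against WT naive it spanned -0.092 to 0.050 with 1 array left out, and was above 0 without WT naive array 1 (0.0041), MW naive array 2 (0.050) and WT naive array 3 (0.044). In WM IMP against WT IMP it was -0.0079 in the 7 arrays, -0.062 in the other table and -0.021 (without WM IMP array 2) to 0.20 with 1 array left out, where its interaction spanned -0.0059 (without that array) to 0.21. Il2rg in WM IMP against MW naive was -0.054 by its more variable probe set and -0.0052 (without MW naive array 2) to 0.12 with 1 array left out. Il2rb in WM IMP against WT IMP spanned -0.66 to 0.64 with 1 array left out (0.64 without WT IMP array 2 and 0.39 without WM IMP array 2), and Il15ra there spanned -0.017 (without WM IMP array 3) to 0.13 and was -0.013 without WT IMP array 1. The Il4ra interaction was -0.29 by probe set, -0.00015 in the other table, -0.093 (without MW naive array 1) to 0.19 with 1 array left out, and -0.0060 without WM IMP array 1. The Il15ra interaction was 0.013 by probe set and 0.18 in the other table.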

Other observations

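The deposited gene table, which weighs probe sets in a way not given in the sources used here, gave values of its own for the receptors. For Il2rb it held 2.94, 2.24 and 2.69 in WM IMP and -0.48, -0.79 and -0.41 in MW naive arrays, and 2.75 and 3.12 in WT IMP, against -0.043, 0.34 and -0.30 in WT naive arrays. The WT IMP arrays, which differed by over 1 unit in the mean of probe sets, were close together there. For Il7r it held -0.051, -0.15 and 0.23 in WM IMP and 1.15, 0.96 and 0.94 in MW naive arrays, and 0.038 and -0.21 in WT IMP, against 0.16, -0.25 and 0.087 in WT naive arrays. In that table Il7r therefore separated MW naive cells from the other 3 groups, which overlapped one another.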
